A study of Mus musculus with 23 samples.

Results

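Met-high tumors were the mammary tumors in which Met, the receptor tyrosine kinase that binds hepatocyte growth factor, was listed at 7 or more on the log2(FPKM + 1) scale. FPKM, the unit of the table, divides a gene's fragments by its transcript length and by library size. The rule took 6 of the 23 tumors, and the other 17, below 7, were called Met-low. Because the level of Met chose the groups, its own difference is given as a description with no test.

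The study asked how mouse mammary tumors that arise without Brca1 differ from one another, and sequenced bulk RNA from 23 primary tumors, 1 library each. All tumors carried the same labelled genotype, Brca1-deficient, on a strain labelled as mixed. The study's methods describe MMTV-Cre; Brca1 fl/fl mice, some of them also Trp53 fl/+. The labels give neither a treatment nor an age. The MMTV promoter drives Cre mainly in mammary epithelium, and a tumor piece also holds stromal and immune cells. The study shows the genotype of its tumors in a figure, but the labels do not give the Trp53 allele of each tumor. That allele was not set beside the Met groups here, and its part in the differences below was not tested. Of 19 title numbers, 4 occurred on a pair of tumors. One such pair, X149T1 and X149T2, fell on opposite sides of the Met rule, and the labels do not say whether the pair came from 1 mouse. The p-values below measure the spread between these tumors.

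Met sits at the cell surface of epithelial cells. Binding of hepatocyte growth factor, the product of Hgf, activates its kinase and recruits the adaptors Gab1 and Grb2, which lead to the ERK, PI3K and STAT3 routes and to motility and branching. Hgf is made by stromal cells as an inactive chain, which proteases such as matriptase (St14) and hepsin (Hpn) cleave and which the inhibitors Spint1 and Spint2 restrain. In human cancers Met is known to be raised through its ligand, through mutation, or together with its neighbours on the chromosome when extra copies are made, and Brca1 loss is known for unstable chromosomes. The files hold RNA levels, and DNA copy number was not analysed here.

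Met lies on the forward strand of chromosome 6, chr6:17463800-17573980 in build GRCm38. Going towards the chromosome start, its nearest genes in the table were Cav1, Cav2, Tes and Tfec. Going away from it they were Capza2, St7, Wnt2, Cftr and Cttnbp2. Promoter windows are shown for Met, for the 3 neighbours that later passed the test and for Cav1, which lies between Cav2 and Met. No window is shown for Boc, a gene on chromosome 16 that passed as well, so the windows cover the neighbourhood of Met only. They come from RefSeq on GRCm38.p6, run from 250 bases before to 50 after a start site, all on the forward strand, and lie at chr6:17280935-17281234 for Cav2, chr6:17306085-17306384 for Cav1, chr6:17463707-17464006 for Met, chr6:17636760-17637059 for Capza2 and chr6:17693744-17694043 for St7. Capitals mark GC boxes, the letters GGGCGG on either strand, so CCGCCC is the same box read on the other strand.
Cav2: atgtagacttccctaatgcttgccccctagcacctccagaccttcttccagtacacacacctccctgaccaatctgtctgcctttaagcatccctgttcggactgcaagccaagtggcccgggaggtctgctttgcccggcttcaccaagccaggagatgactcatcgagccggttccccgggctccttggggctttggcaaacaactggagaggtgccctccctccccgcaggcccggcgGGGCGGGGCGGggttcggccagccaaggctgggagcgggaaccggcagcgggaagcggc
Cav1: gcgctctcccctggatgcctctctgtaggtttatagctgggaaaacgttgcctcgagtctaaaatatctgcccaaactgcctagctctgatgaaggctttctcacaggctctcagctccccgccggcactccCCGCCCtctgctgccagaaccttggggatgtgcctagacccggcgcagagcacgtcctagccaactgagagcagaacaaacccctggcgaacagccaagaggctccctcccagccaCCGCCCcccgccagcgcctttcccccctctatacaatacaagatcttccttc
Met: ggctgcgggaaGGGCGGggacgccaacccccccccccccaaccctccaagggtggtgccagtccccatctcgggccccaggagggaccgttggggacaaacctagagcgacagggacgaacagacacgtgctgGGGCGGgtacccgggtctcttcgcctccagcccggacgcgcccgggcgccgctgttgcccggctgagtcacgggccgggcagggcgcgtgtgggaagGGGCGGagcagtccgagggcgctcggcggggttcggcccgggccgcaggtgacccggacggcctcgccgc
Capza2: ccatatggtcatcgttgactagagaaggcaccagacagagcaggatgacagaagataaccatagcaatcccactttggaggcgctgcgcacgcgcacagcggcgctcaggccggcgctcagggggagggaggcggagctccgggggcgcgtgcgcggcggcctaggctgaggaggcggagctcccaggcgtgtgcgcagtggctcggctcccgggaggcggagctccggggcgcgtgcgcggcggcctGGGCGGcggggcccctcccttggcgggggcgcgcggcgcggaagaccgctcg
St7: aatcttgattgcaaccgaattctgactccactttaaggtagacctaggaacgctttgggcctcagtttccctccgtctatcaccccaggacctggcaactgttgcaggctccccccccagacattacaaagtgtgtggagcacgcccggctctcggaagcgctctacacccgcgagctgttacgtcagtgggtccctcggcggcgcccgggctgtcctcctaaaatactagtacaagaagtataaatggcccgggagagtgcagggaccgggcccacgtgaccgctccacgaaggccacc

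The Met window held 3 GC boxes and 34 CpG dinucleotides in 75.7% G and C. Capza2 had 1 box and 38 CpG, St7 no box and 19 CpG, Cav2 2 boxes that share bases and 16 CpG, and Cav1 2 boxes and 13 CpG. Of all 32851 RefSeq promoter windows of this length 35.7% held a GC box, and their median CpG count was 7. All 5 windows were thus richer in CpG than the median window, and they did not share the box. A match of letters is a description and says nothing about binding.

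Met was listed at 9.55 in X153T, 9.36 in X437T, 9.23 in X2265T, 8.79 in X154T, 8.25 in X520T and 7.82 in X149T1. These levels correspond to 746 FPKM in the highest tumor and 225 in the lowest. The 17 Met-low tumors ran from 0.94 in X147T over a median of 3.57 to 5.67 in X9387T. The tumor just inside the rule was therefore X149T1 at 7.82 and the one just outside was X9387T at 5.67, followed by X92T at 5.61. Against the Met-low median of 10.8 FPKM, Met was 68.8 times as abundant in X153T and 20.7 times in X149T1. X149T2, which shares its title number with X149T1, stood at 1.56, among the lowest of all.

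**Figure D1:**
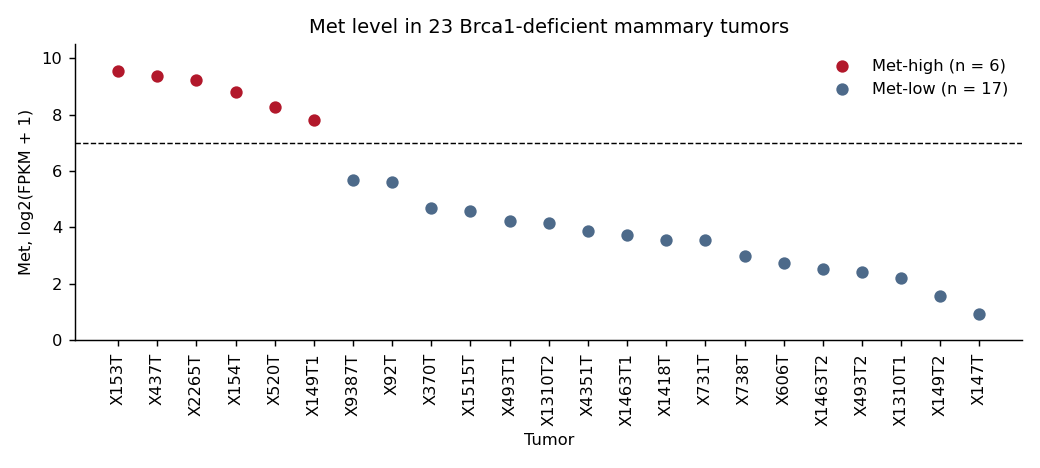
Met level of each of the 23 tumors in log2(FPKM + 1), ordered from the highest, with the dashed line at the rule's value of 7. The 6 Met-high tumors sit between 7.82 and 9.55 and the 17 Met-low tumors between 0.94 and 5.67, with no tumor between 5.67 and 7.82.

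The first comparison asked which genes other than Met differed between the 6 Met-high and the 17 Met-low tumors. Of 12040 genes tested by limma, 4 passed an adjusted p of 0.05, which is 0.0332% of them, and 922 had an unadjusted p under 0.05, which is 7.66%. Capza2, St7 and Cav2 were higher in the Met-high tumors (0.0249% of all genes tested) and Boc was lower (0.00831%). Capza2, St7 and Cav2 are 3 of the 4 nearest tested neighbours of Met, and the other is Cav1. In Capza2, St7, Cav2 and Boc, and in no other gene tested, the 6 Met-high tumors did not overlap the 17 Met-low tumors. Over all genes the median difference was 0.09 on the log2 scale.

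**Figure D2:**
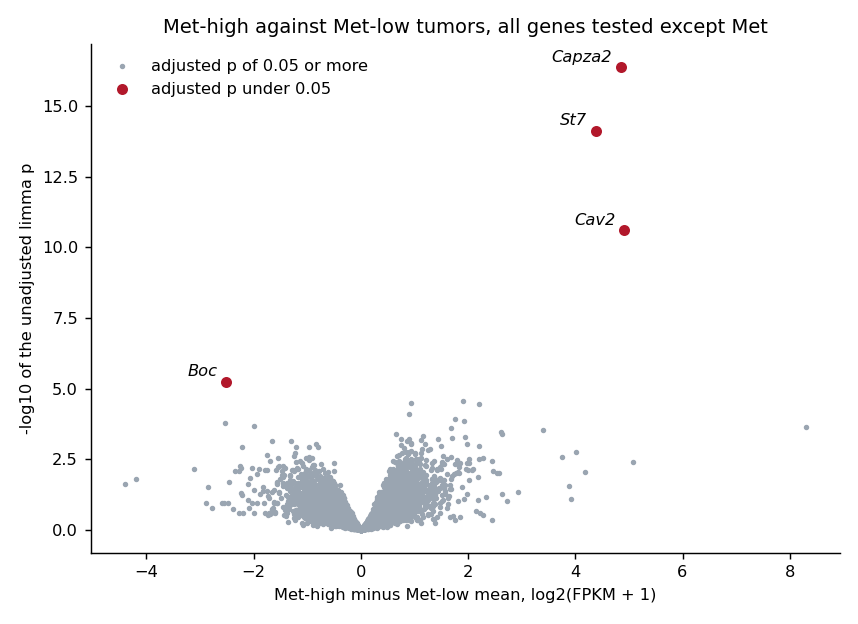
Each point is 1 of 12040 genes, placed by the Met-high minus Met-low difference in mean log2(FPKM + 1) and by the −log10 of the unadjusted limma p. Capza2, St7 and Cav2 stand apart at differences of 4.85, 4.38 and 4.92, and Boc lies at −2.51.

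Capza2, which encodes an alpha subunit of the protein that caps actin filaments, begins 0.0623 Mb beyond the end of Met. It was listed at 11.09 in X153T, 11.19 in X437T, 11.66 in X2265T, 11.08 in X154T, 10.15 in X520T and 10.16 in X149T1. The Met-low tumors ran from 5.11 over a median of 6.06 to 6.73, so every Met-high tumor lay far above all of them. The difference was 4.85 (SE 0.24), from 10.89 ± 0.61 (SD, n = 6) to 6.04 ± 0.45 (SD, n = 17), with a limma adjusted p of 4.88e-13. In FPKM, the Met-high tumors held between 17.3 and 49.1 times the Met-low median.

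St7, a membrane protein gene first named for suppression of tumorigenicity in human cells, begins 0.119 Mb beyond Met. Its levels were 7.22 in X153T, 7.77 in X437T, 8.01 in X2265T, 7.05 in X154T, 6.82 in X520T and 6.52 in X149T1. The Met-low tumors ran from 1.43 over 2.89 to 3.59, again without overlap. The difference was 4.38 (SE 0.27), with an adjusted p of 4.4e-11 by limma. The fold over the Met-low median in FPKM was 14.2 in X149T1 and 40.0 in X2265T.

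Cav2, caveolin 2, a membrane protein that pairs with Cav1 in caveolae, ends 0.175 Mb before Met. It was listed at 9.42 in X153T, 9.40 in X437T, 9.06 in X2265T, 9.64 in X154T, 8.69 in X520T and 9.61 in X149T1. The Met-low tumors ran from 1.58 over 4.86 to 5.96. The Met-high tumors were thus alike, within a range of 1 log2 unit, and all lay above the Met-low tumors. The difference was 4.92 (SE 0.44), with an adjusted p of 9.7e-08 by limma.

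Capza2 and St7 passed the threshold under all 38 settings of this comparison, the one reported included, and Cav2 under 37. The exception for Cav2 was the set of 8 tumors with Fos under 8, 3 of them Met-high, in which the difference was 5.47 (SE 0.82) at an adjusted p of 0.385. Over the settings with the groups compared, the adjusted p of Cav2 ran from 3.4e-09 to that value. Without X149T1 the number of genes past the threshold was 9, and without X2265T it was 7. With tumors that share a title number fitted as a block it was 7, the 4 genes already named and Cftr, Them6 and Mrps30, each of these at an adjusted p of 0.0420.

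Cav1, caveolin 1, the main coat protein of caveolae, lies between Cav2 and Met and ends 0.122 Mb before Met. It was listed at 11.09 in X520T, 10.44 in X154T, 9.59 in X149T1, 7.88 in X153T, 6.87 in X437T and 4.40 in X2265T. The Met-low tumors ran from 2.01 over 4.57 to 7.40. In 4 Met-high tumors Cav1 was above every Met-low tumor, whereas in X437T and X2265T it was within their range, although Cav2, Met and Capza2 on either side of it were high in both. The difference was 3.40 (SE 0.81), with an adjusted p of 0.231.

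Tes, which encodes testin, a focal adhesion protein, ends 0.358 Mb before Met. Its levels were 11.82 in X153T, 10.77 in X149T1 and 8.91 in X437T, all above the highest Met-low tumor at 6.23. In X520T it was listed at 6.17, just under that highest Met-low tumor. In X154T and X2265T it stood at 5.87 and 5.15, within the Met-low range, whose median was 5.61. The difference was 2.62 (SE 0.63), with an adjusted p of 0.261. Tfec, a transcription factor of the Mitf family, lies 0.565 Mb before Met, had a mean FPKM under 1 and was not tested. It was listed at 0 in 4 Met-high tumors and at 1.11 and 1.19 in X437T and X520T, against a Met-low range of 0 to 2.51.

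Cftr, an epithelial chloride channel, begins 0.597 Mb beyond Met and was listed at 0 in 15 of the 17 Met-low tumors, with 1.48 the highest. It stood at 4.99 in X154T, 2.96 in X149T1, 2.66 in X153T, 2.57 in X437T, 0.72 in X520T and 0 in X2265T. Thus 4 Met-high tumors exceeded every Met-low tumor. The difference was 2.196 (SE 0.44), with an adjusted p of 0.0606 by limma. Cftr had a mean of 8.05 FPKM in the Met-high and 0.131 in the Met-low tumors, so it met the minimum mean of 1 FPKM only through the group in which it was high, and its p is no independent support.

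Wnt2, a secreted Wnt ligand on the reverse strand between St7 and Cftr, was not tested for its low mean. It reached 2.81 in X154T and was at or below 0.52 in the other 5 Met-high tumors, with a Met-low maximum of 0.31. Cttnbp2, a cortactin-binding protein gene, stood at 4.16 in X520T and 3.97 in X437T and under 1 in the other 4, with a Met-low maximum of 1.79 (difference 1.42, SE 0.48, adjusted p = 0.532). It too met the minimum only through the Met-high tumors. Each of these genes was thus high in a different subset of the tumors.

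When X2265T was left out, Cav1 (difference 4.20, adjusted p = 0.0266 by limma), Tes (3.21, adjusted p = 0.0325) and Cftr (2.66, adjusted p = 0.00202) also passed, the last with the limit just given. Over the settings tried, with the 2 groups compared, the adjusted p ran from 0.0266 to 0.624 for Cav1, from 0.0325 to 0.598 for Tes and from 0.00139 to 0.500 for Cftr.

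**Figure D3:**
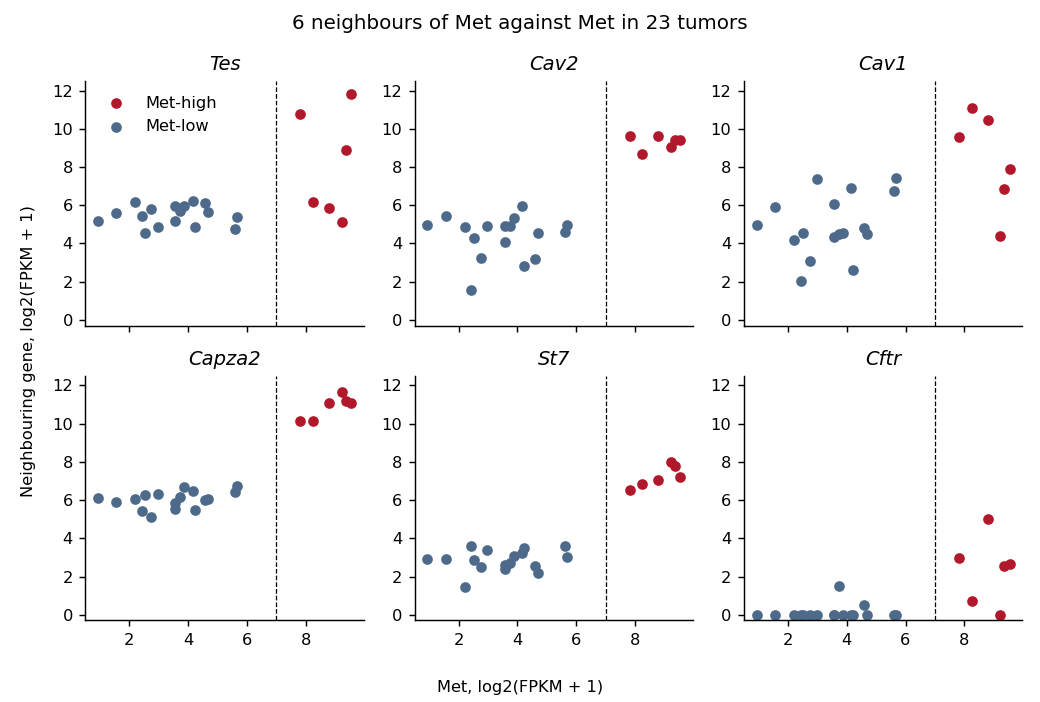
Levels of 6 neighbours of Met (vertical) against Met (horizontal), both in log2(FPKM + 1), in the 6 Met-high and 17 Met-low tumors, with the dashed line at 7. Cav2, Capza2 and St7 are high in all 6 Met-high tumors, whereas Tes, Cav1 and Cftr range from the Met-low level upwards.

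Within 1 Mb of Met the table held 9 other genes, and 3 passed. The median difference in mean level of all 9, tested or not, was 2.62, against 0.05 over the 14534 genes of the table other than Met. For the 22 genes within 5 Mb, of which the same 3 passed, the median was 0.18, and for the 41 within 10 Mb it was 0.06. Farther away, Ing3, 4.38 Mb beyond Met, differed by −0.59 (SE 0.24, adjusted p = 0.605) and Fam3c, 4.73 Mb beyond, by −0.45 (SE 0.46, adjusted p = 0.859).

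The stretch of adjoining genes that exceeded every Met-low tumor differed among the 6 tumors. As background, the share of all tested genes that lay above every Met-low tumor was 1.94% in X149T1, 3.11% in X153T, 3.7% in X154T, 4.62% in X437T, 9.22% in X520T and 9.5% in X2265T. In X2265T the unbroken run beside Met held 2 genes, Capza2 and St7, and spanned 0.479 Mb with Met. In X520T it held Cav2, Cav1, Capza2 and St7, over 0.662 Mb. X154T added Cftr to those 4, over 1.04 Mb. X149T1 added Tes as well, for 6 genes and 1.26 Mb. X153T had the longest run, 7 genes from Mdfic to Cftr over 2.60 Mb. In X437T the run began at Met and went on for 5 genes to Lsm8, over 1.39 Mb, with Cav1 just outside the criterion and Cav2 and Tes beyond it high.

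At the far ends of these runs, Mdfic and Lsm8 were each high in 1 tumor. Mdfic, an inhibitor of MyoD family factors that lies 1.66 Mb before Met, was listed at 8.50 in X153T and between 1.81 and 5.05 in the other 5, against a Met-low range of 1.89 to 5.29 (difference 1.25, SE 0.61, adjusted p = 0.648). Lsm8, part of a ring that binds U6 small nuclear RNA and lying 1.27 Mb beyond Met, was listed at 9.05 in X437T and between 4.51 and 5.51 in the other 5, against 4.86 to 6.58 in the Met-low tumors (difference 0.33, SE 0.40, adjusted p = 0.880). Tspan12, the next tested gene after Lsm8 at 4.20 Mb beyond Met, exceeded the Met-low tumors in none of the 6.

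**Figure D4:**
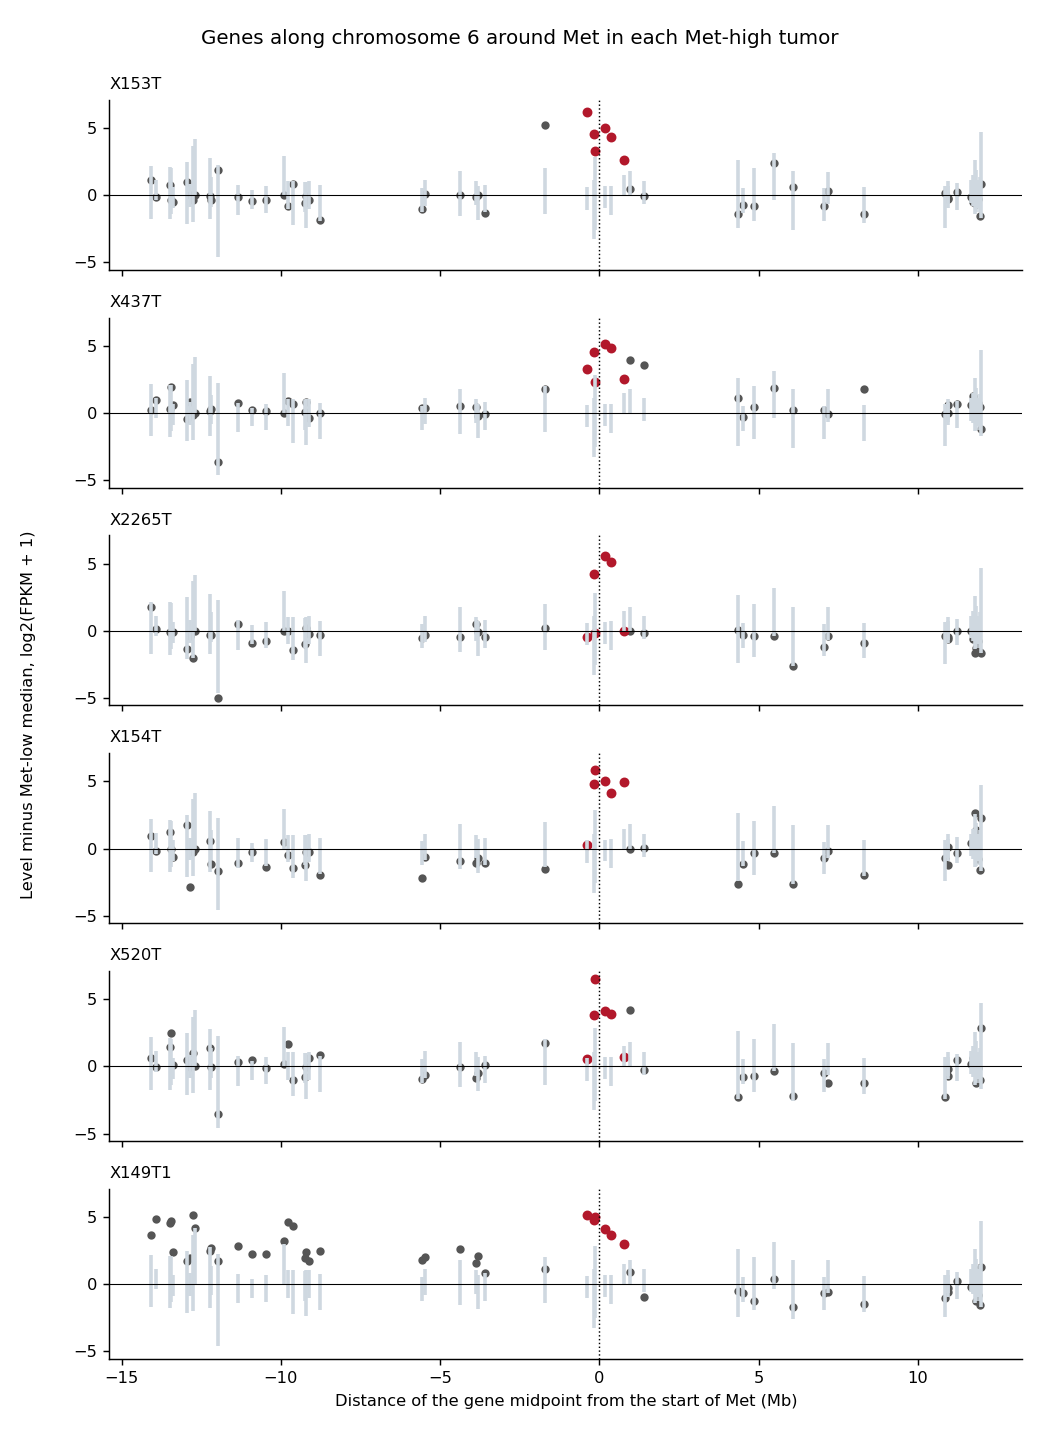
For each Met-high tumor, the level of each tested gene minus the Met-low median in log2(FPKM + 1), against its distance from the start of Met in Mb. Red points are Tes, Cav2, Cav1, Capza2, St7 and Cftr and bars are the Met-low range, and high points lie beside Met in all 6 tumors, while in X149T1 genes on the side of the chromosome start are raised as well.

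X149T1 had a second raised stretch. Of the 28 tested genes between the start of chromosome 6 and Mdfic, 25 were above every Met-low tumor in X149T1, with a median of 2.44 log2 units above the Met-low median. In the other 5 Met-high tumors 0 to 4 of the 28 were, and 0 to 6 in a Met-low tumor set against the other Met-low tumors. Of 25 tested genes between 19 and 30 Mb, on the far side of Met, 0 were in X149T1. Asparagine synthetase, Asns, 9.77 Mb before Met, was listed at 9.25 in X149T1, against 3.82 to 6.30 in the other 5 and 3.65 to 5.69 in the Met-low tumors. C1galt1, an O-glycan galactosyltransferase, stood at 7.91 in X149T1 and at 4.65 in the highest Met-low tumor. Ndufa4, a mitochondrial respiratory chain protein gene, stood at 10.26 and 9.04. Mdfic, between this stretch and Tes, was at 4.40 in X149T1, within the Met-low range. In X149T2, with the same title number, 3 of the 28 genes exceeded the other Met-low tumors, and Capza2, St7 and Cav2 were listed at 5.92, 2.89 and 5.42, within the Met-low range.

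Set against the rest of the genome, the group of Cav2, Cav1, Capza2 and St7 was among the highest runs of neighbouring genes in each Met-high tumor. Over 11763 windows of 4 consecutive tested genes, Met left out, the median excess of this window over the Met-low median was 4.44 in X153T, 4.71 in X437T, 4.66 in X2265T, 4.90 in X154T, 4.01 in X520T and 4.42 in X149T1. It ranked 1 in X2265T and 12 in X154T, and between these in the other 4, where windows that overlap it count separately. Windows outside the genes from Mdfic to Lsm8 were higher in several tumors. A chromosome 13 window with Prl2c2, Prl2c3 and Prl2c5 reached 8.85 in X154T and 5.52 in X437T. A granzyme window on chromosome 14 reached 5.24 in X520T, and the window from Samd9l to Gng11 on chromosome 6 reached 4.62 in X149T1. In X153T and X2265T the highest such windows were lower, at 3.76 and 3.64. In the Met-low tumors, each set against the other Met-low tumors, the same window lay between −1.67 and 0.82 and ranked 377 at best. The windows overlap and the tumors were chosen on Met, so these ranks are a description.

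Within the 17 Met-low tumors 0 of the 12040 genes tested had a slope on Met past the threshold. The lack of a call for the neighbours is thus shared with every gene tested. A slope here is the change in log2(FPKM + 1) of a gene per log2 unit of Met. It was 0.12 (SE 0.09) for Capza2 (adjusted p = 0.560 by limma), 0.08 (SE 0.11) for St7 (adjusted p = 0.785), 0.02 (SE 0.20) for Cav2 (adjusted p = 0.978), 0.00 (SE 0.11) for Tes (adjusted p = 0.989) and 0.38 (SE 0.27) for Cav1 (adjusted p = 0.555). The 2 Met-low tumors with the most Met, X9387T and X92T, held Capza2 at 6.73 and 6.43 and Cav1 at 7.40 and 6.77, the first at the top of the Met-low range for both genes.

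Boc was the only gene past the threshold outside the neighbourhood of Met. It encodes a cell-surface protein of the immunoglobulin superfamily that binds Hedgehog ligands together with Patched, and lies at chr16:44485049-44558897. It was listed at 0 in X153T, X154T and X520T, at 0.16 in X149T1, 0.67 in X2265T and 0.72 in X437T. The Met-low tumors ran from 0.96 over a median of 2.82 to 4.42, so the groups did not overlap. The difference was −2.51 (SE 0.44), with an adjusted p of 0.0170 by limma. The call was lost without X153T (adjusted p = 0.0688), without X154T (0.0562) or without X520T (0.0554), and within the tumors with Fos of 8 or more (0.294) or under 8 (0.449). Over all settings in which the 2 groups were compared, the difference ran from −4.66, at a pseudocount of 0.1, to −2.11.

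Other receptors and readouts of the Hedgehog pathway, chosen after the values of Boc were seen, passed no test. The co-receptor Gas1 differed by −0.997 (SE 0.64, adjusted p = 0.758) and the co-receptor Cdon by −0.50 (SE 0.46, adjusted p = 0.839). The receptor Ptch1 differed by 0.22 (SE 0.36, adjusted p = 0.915) and the signal transducer Smo by −0.51 (SE 0.43, adjusted p = 0.821). Gli1, a transcriptional target of the pathway, was listed at 0 in all 6 Met-high tumors and in 14 of the 17 Met-low tumors.

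No other gene passed, so those named next are the ones with the smallest p and lie past no threshold. On the higher side these were led by Them6 (difference 1.91, SE 0.37) and Mrps30, a mitochondrial ribosome protein gene (0.94, SE 0.19), both at an adjusted p of 0.0606 by limma. Them6 was listed at 2.98 to 4.93 in the Met-high tumors and at 0.63 to 3.87 in the Met-low tumors. Mrps30 stood at 4.42 to 5.49 and at 3.49 to 4.42, and the groups overlapped only at that edge. Them6 passed under 9 of the 38 settings and Mrps30 under 4. Next came Smn1, needed to assemble spliceosomal particles (0.89, adjusted p = 0.116), the guanylate-binding protein gene Gbp4 (1.76, adjusted p = 0.163), the glycosyltransferase gene B3gnt7 (1.92, adjusted p = 0.173) and the interferon-inducible GTPase gene Tgtp2 (1.69, adjusted p = 0.210). Foxf2, a forkhead factor, was listed at 0.93 in X2265T and at 2.48 to 4.87 in the other 5 Met-high tumors, and at 0 in 10 of the 17 Met-low tumors (2.64, adjusted p = 0.283). Gbp4 and Tgtp2 passed without X149T1 (adjusted p = 0.0151 for each), in which both were listed at 0. Gbp4, Tgtp2 and Tgtp1 had means of 0.127, 0.397 and 0.480 FPKM in the Met-low tumors and met the minimum of 1 only through the Met-high tumors.

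The remaining 5 of the 12 on that side were Btf3, S100a10, Ifi203, Tgtp1 and Polr2h, with differences between 0.65 and 1.94 and adjusted p between 0.283 and 0.306. Tgtp1 and Tgtp2 are near-identical copies, so reads may have been divided between them.

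On the lower side, after Boc, the smallest p values belonged to Ldhb and S100a16. Ldhb, the lactate dehydrogenase subunit of oxidative tissues, lies on chromosome 6 as well but far from Met, at chr6:142490249-142507957. It was listed at 0.76 in X154T, 3.08 in X153T, 3.32 in X2265T, 3.70 in X520T, 4.73 in X149T1 and 5.13 in X437T, against 3.50 to 7.80 in the Met-low tumors, with a median of 6.07. The groups overlapped, and the difference was −2.54 (SE 0.57, adjusted p = 0.179). S100a16, a calcium-binding protein gene, differed by −1.99 (SE 0.46, adjusted p = 0.204) and Cxcr4, a chemokine receptor, by −1.30 (SE 0.34, adjusted p = 0.306). Slc22a17, Tigd2, Spryd7, Cyp4f17, Ndrg2, Ccpg1 and Cd164l2 differed by −0.79 to −2.21, with adjusted p between 0.306 and 0.484.

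**Figure D5:**
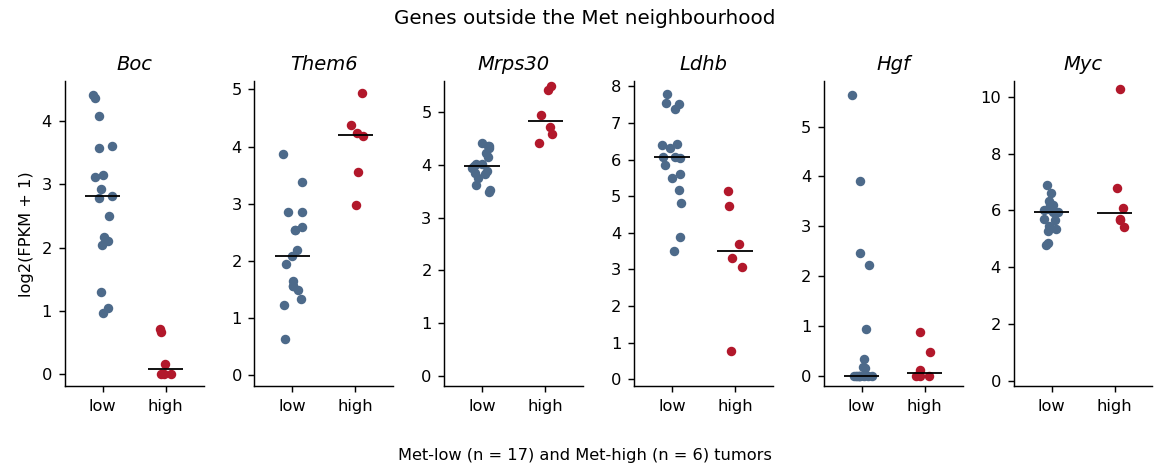
Levels in log2(FPKM + 1) of 6 genes outside the neighbourhood of Met in the 17 Met-low and 6 Met-high tumors, with each point a tumor and the bar the group median. Boc is separated between the groups, Them6, Mrps30 and Ldhb overlap, Hgf is at or near 0 in most tumors of both groups, and Myc stands out in 1 Met-high tumor, X154T, at 10.28.

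The ligand and its activators were examined next, since Met acts through Hgf. None of the 8 genes tested passed, and 0 had an unadjusted p under 0.05 (7.66% of all genes did). Hgf was listed at 0.88 in X153T, 0.50 in X520T, 0.13 in X154T and 0 in X437T, X2265T and X149T1. In the Met-low tumors its median was 0 and its highest values were 5.63 in X92T and 3.92 in X9387T, the 2 tumors with the most Met below the rule. Epcam was low in both, at 3.10 and 0.55, and Vim, a mesenchymal filament gene, was high, at 10.58 and 10.90. The difference was −0.68 (SE 0.66, adjusted p = 0.847). The protease genes differed by −1.38 (SE 0.87) for Hpn and 0.36 (SE 1.07) for St14, and the inhibitor genes by 0.06 (SE 0.48) for Spint1 and 0.02 (SE 1.12) for Spint2. Plau and Plat, the plasminogen activators, differed by 0.18 (SE 0.58) and 0.07 (SE 0.56), and Tmprss2, a further membrane protease, by 0.07 (SE 0.72). St14 and Spint2 spread widely in both groups. They were listed at 0.43 and 0.89 in X520T, the only Met-high tumor with Epcam under 4, and ran from 0 to 7.68 and from 1.69 to 8.94 in the Met-low tumors.

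Adaptors and signalling partners downstream of Met showed no call. Of 22 tested, 1 had an unadjusted p under 0.05 on the higher side (5.37% of all genes) and none on the lower (2.28%), with a median difference of 0.17. The largest differences were those of Akt1 (0.57, SE 0.33, adjusted p = 0.726) and Stat3 (0.48, SE 0.29, adjusted p = 0.736). Among 14 receptors that partner with Met, Plxnb2, a semaphorin receptor, differed by 0.84 (SE 0.24, adjusted p = 0.454), Erbb3 by −0.82 (SE 0.79) and Cd44 by 0.78 (SE 0.49).

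Genes that report ERK activity had a median difference of −0.19 over 20 tested. At an unadjusted p under 0.05, 0 were higher and 2 lower, against 5.37% and 2.28% of all genes. Egr1, an immediate-early factor, was listed at 4.60 to 7.56 in the Met-high tumors and at 4.66 to 9.41 in the Met-low tumors (difference −1.56, SE 0.65, adjusted p = 0.616). Spry2, a feedback inhibitor of receptor tyrosine kinases, differed by −0.92 (SE 0.41, adjusted p = 0.642). Egr1 belongs also to the immediate-early genes, which had a median of −0.67 and 3 differences above 0. At an unadjusted p under 0.05, 0 of these 24 were higher and 3 lower, against the same shares of all genes. Fos was 8 or more in 15 tumors, 3 of them Met-high, and the part of the immediate-early level in the ERK values was not tested.

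Myc, in both the ERK list and the list of oncogenes of known amplicons, was listed at 10.28 in X154T and at 5.42 to 6.78 in the other 5 Met-high tumors, against 4.78 to 6.89 in the Met-low tumors. Its difference was 0.86 (SE 0.46, adjusted p = 0.688), so it rested on 1 tumor. Of 31 receptor tyrosine kinases tested besides Met, 0 passed, with a median of −0.10. At an unadjusted p under 0.05, 0 were higher and 1 lower, against 5.37% and 2.28% of all genes. Fgfr2 (−1.05, SE 0.77) and Fgfr3 (−1.04, SE 0.57) had the largest differences. Invasion and scattering genes, which Met is known to induce in cultured epithelium, had a median of 0.33 over 18 tested with 0 at an unadjusted p under 0.05, and Lama3, a laminin chain gene, differed by 1.31 (SE 0.87).

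Across 36 gene lists, which together held 479 tested genes, 0 members passed the threshold. By limma at an unadjusted p under 0.05, 4 lists had 4 or more members on the higher side. The interferon response list had 8 of 21 on the higher side and 0 on the lower, with a median difference of 1.04, against 5.37% higher and a median of 0.09 over all genes. Isg15, a ubiquitin-like interferon product, was listed at 3.85 to 7.43 in the Met-high tumors and at 2.34 to 6.51 in the Met-low tumors (difference 1.402, SE 0.57, adjusted p = 0.605), and Gbp2 differed by 1.33 (SE 0.52, adjusted p = 0.585). The mean standardized level of the list was 1.96 in X2265T, 1.33 in X520T, 0.66 in X154T, 0.54 in X153T, −0.08 in X437T and −0.83 in X149T1, against −1.45 to 0.93 in the Met-low tumors. Thus 2 Met-high tumors lay above the Met-low range and the other 4 within it.

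The MHC class I list had 5 of 10 on the higher side at an unadjusted p under 0.05, against 5.37% of all genes, and a median of 0.82. It was led by B2m, the shared light chain (0.93, SE 0.25, adjusted p = 0.342), and the immunoproteasome genes Psmb10 (1.14, SE 0.41) and Psmb8 (1.01, SE 0.38). Its mean standardized level ran from −0.63 in X154T to 1.58 in X2265T, against −1.72 to 1.09. The macrophage markers had a median difference of 0.89, against 0.09 over all genes, with 15 of 16 above 0. Of these markers 1 was higher at an unadjusted p under 0.05, and their mean standardized level was −0.25 to 1.13 against −2.14 to 1.28. Their part in the interferon and MHC values was not tested. In bulk RNA, fewer cells of a type and less RNA per cell cannot be told apart. Of the T and NK cell markers 9 were in the table, and of the B and plasma cell markers 3, and 1 and 0 of these had a mean FPKM of 1 or more.

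The proliferation list had 5 of 26 on the higher side at an unadjusted p under 0.05, against 5.37% of all genes. All 26 differences were above 0, with a median of 0.64 against 0.09 over all genes. Its mean standardized level ran from −0.03 to 1.07 in the Met-high and from −2.22 to 0.89 in the Met-low tumors, so the groups overlapped. Ccnb1, cyclin B1, differed by 1.00 (SE 0.44, adjusted p = 0.631) and Top2a by 0.91 (SE 0.35, adjusted p = 0.585), while Mki67 was listed at 2.099 to 5.09 in the Met-high and 0.08 to 5.05 in the Met-low tumors. The hypoxia and glycolysis list had 4 of 18 higher and 0 lower, against 5.37% and 2.28% of all genes, with a median of 0.45. Its mean standardized level also overlapped, at 0.07 to 0.81 against −1.06 to 0.97. Pkm, pyruvate kinase, stood at 9.66 to 11.56 against 7.81 to 10.10 (difference 1.20, SE 0.32, adjusted p = 0.342) and Ldha at 8.84 to 10.02 against 7.70 to 9.59 (0.78, SE 0.27, adjusted p = 0.532). Car9, another hypoxia target, differed by −1.09 (SE 0.63, adjusted p = 0.723). With the immediate-early level as a covariate the proliferation count was 2 and the MHC class I count 3.

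No member of the lineage lists passed the threshold. Epithelial genes had a median difference of 0.09 over 28 tested and mesenchymal genes of 0.29 over 23, with 0 at an unadjusted p under 0.05 in either. Epcam was listed at 6.97 to 9.23 in 5 Met-high tumors and at 0 in X520T. Krt14, a basal keratin, ran from 2.43 to 9.84 in the Met-high and from 0.84 to 9.81 in the Met-low tumors. Milk and alveolar genes had a median of −0.87 over 12 tested, with 1 lower at an unadjusted p under 0.05 (2.28% of all genes). Lalba, the milk whey protein gene, differed by −2.46 (SE 1.00, adjusted p = 0.605). Luminal progenitor genes had a median of −0.47 over 14. Their mean standardized level was low in X520T (−1.49) and X154T (−0.85). The other Met-high tumors ran from 0.30 in X2265T to 0.52 in X153T, above the Met-low median of 0.23. Basal genes had a median difference of 0.07 over 17, fibroblast markers −0.09 over 16 and endothelial markers 0.23 over 12.

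Measures of the libraries overlapped between the groups but differed in their medians. Between 11978 and 12445 genes were above 0 in a Met-high tumor and between 11829 and 12863 in a Met-low tumor. Short non-coding RNA genes took 5.28% to 47.3% of the summed FPKM in the first and 4.88% to 72.7% in the second, the highest being X149T2, with medians of 24.7% and 7.77%. Fos, an immediate-early gene, was listed at 3.69 to 8.54 in the Met-high and at 3.39 to 9.99 in the Met-low tumors, with medians of 6.58 and 8.67. The part of either in the differences above was not tested beyond the fits with the immediate-early level and with other scalings. Sequencing depth cannot be read from these values.

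The last comparison asked which genes varied with Met among the Met-low tumors alone, so that no slope rested on a Met-high tumor. The genes tested were the same 12040, chosen on their mean over all 23 tumors, and some entered only through the Met-high tumors. By limma 0 genes passed, the smallest adjusted p being 0.0824, and 1633 had an unadjusted p under 0.05, which is 13.6% of those tested (6.05% with a positive slope and 7.52% with a negative one). The smallest p on the positive side, past no threshold, belonged to Nfkb1, a subunit of NF-kappa-B (slope 0.55, SE 0.10), Igf2bp2, an RNA-binding protein (1.21, SE 0.22), Mfhas1 (0.69, SE 0.13) and Sh3pxd2b, an adaptor of podosomes (0.67, SE 0.13), each at an adjusted p of 0.0824. Rnf19b and Vasn followed, at slopes of 0.70 and 0.56 and an adjusted p of 0.0991. On the negative side stood Rpl31 (−0.45, SE 0.08), Emg1, needed for the small ribosomal subunit (−0.39, SE 0.07), Pdk1 (−0.52, SE 0.10), Rpl32 (−0.40, SE 0.08), Rpl31-ps12 (−0.40, SE 0.08) and Rpl13a (−0.39, SE 0.08), at an adjusted p of 0.0824 to 0.0848. Ribosomal protein genes have many near-identical copies, so their values are uncertain. Without X493T1 the count of genes past the threshold was 21 instead of 0, and with tumors that share a title number fitted as a block it was 10, among them Nfkb1, Igf2bp2, Mfhas1, Rpl31, Emg1, Pdk1, Rpl32 and Rpl31-ps12. Among the lineage lists, epithelial genes had a median slope of −0.36, with 3 of 28 negative at an unadjusted p under 0.05, macrophage markers 0.49, with 4 of 16 positive, and mesenchymal genes 0.20, with 4 of 23 positive. The part of lineage in the slopes of single genes was not tested beyond leaving out the tumors with Epcam under 4, after which 0 genes passed.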

How the data were processed

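Bulk RNA of 23 primary mouse mammary tumors was sequenced, and per the labels all form 1 group. The authors deposited 1 table of log2(FPKM + 1) for 14535 gene symbols. FPKM was made by the authors: the submitters' processing notes name Trimmomatic 0.35, TopHat2 2.0.13 and Cufflinks 2.2.1 with build mm10, and the study's methods name another TopHat release. The sources used here do not say if libraries were stranded, so overlapping genes were not told apart. A value of 0 may be a failed estimate, so genes are said to be listed at 0. With no counts, depth is unknown and intervals from counting were not computed.

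Tumors were divided at 7 on the Met scale. The 12040 genes other than Met whose mean FPKM reached 1 entered a two-sided moderated fit (R 4.3.3, limma 3.58.1, intensity trend) with Benjamini-Hochberg adjustment at 0.05 over all of them, on a scale with a pseudocount of 1, which understates changes of low genes. The fit was tested on simulated data. A second fit took the slope on Met in the 17 Met-low tumors. Tables were made with Python 3.11.15 and pandas 2.3.3. Symbols were placed on GENCODE annotation of GRCm38: 13982 matched by current symbol, another 436 by a former one, and 117 found no match. Promoters came from RefSeq.

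Named genes were Met, its neighbours within 1 Mb, any within 5 Mb past the threshold, the 12 genes in each direction with the largest difference past the threshold outside 5 Mb, and 6 in each direction for the slopes. Where fewer passed, those of smallest p filled the number. Short RNA genes and genes with only a Gm number or a Rik symbol were left out. To these came the ligand list and up to 4 members of each other list, by size of difference, and Epcam, Krt14, Fos and Mki67. Some genes that the rule names are not reported here. The members and the 36 lists were chosen with earlier results of these data known. Alternatives were another pseudocount, other filters, scalings and tumor sets, robust fitting, an immediate-early covariate, Met as a continuous predictor and leaving out each tumor. The sets by Fos, the removal of the X149 pair and the block on title number were chosen after seeing the data.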

Additional observations from a re-analysis of the deposited data

Results flagged for a closer look

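Values of 1 tumor set apart from the other 5 Met-high tumors were sought with Dixon's criterion (0.625 for 6 samples) in the 83 genes that the text describes by Met group, and 12 had one. Chance alone marks about 1 in 20 where values are normal and genes independent, and neither holds here. Fgfr2 and Lalba were listed at 0 in the other 5 tumors, where any value above 0 meets the criterion. Several of the 12 come from the same tumor, X520T. The count is therefore a description and is not set against that rate. In X520T, Epcam and Lama3 were listed at 0, St14 at 0.43 and Spint2 at 0.89, where the next lowest tumors stood at 6.97, 3.05, 4.99 and 7.44, and Gas1 was listed at 6.86, with 3.69 the next highest. The part of the epithelial content of X520T in these values was not tested. In X154T, Myc was listed at 10.28, Wnt2 at 2.81 and Fgfr2 at 1.36, where the next highest tumors stood at 6.78, 0.52 and 0. In X149T1, B630005N14Rik, a gene given under a Rik symbol, was listed at 4.81, with 2.71 the next. It lies 3.79 Mb before Met in the stretch of chromosome 6 raised in that tumor. Lalba was listed at 2.12 in X149T1, with 0 in the other 5. Lsm8 was listed at 9.05 in X437T, with 5.51 the next, and Fgfr3 at 1.84 in X2265T, with 0.43 the next.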

How the results depend on the processing

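The count of genes past the threshold, 4 in the reported fit, was 7 with no filter on low values, 12 with Met as a continuous predictor (7 with a positive and 5 with a negative slope) and 7 without the pair X149T1 and X149T2. With each tumor left out in turn it ran from 3 to 9, the highest without X149T1. The number of neighbours past it, 3, ran from 3 to 6 with each tumor left out, the highest without X2265T, and was 2 within the tumors with Fos under 8. Of the Met-high tumors, X2265T had the lowest Cav1, Tes and Cftr, the genes added without it. Cftr met the minimum mean only through the Met-high tumors. Among the Met-low tumors the count of 0 became 2 after quantile normalization (Emg1 and Nfkb1) and ran from 0 to 21 with each tumor left out. The count of list members past the threshold stayed at 0 under quantile normalization and with the immediate-early covariate. Lsm8 (0.33 in the reported fit) ran from −0.31, without X437T, to 0.59 with each tumor left out and was lower within the tumors with Fos of 8 or more (−0.33), and X437T alone carried its high value. Upper-quartile scaling moved the median difference of all genes from 0.09 to −0.01. Each named gene was counted once under each setting. Of these pairs of gene and setting, 1165 kept direction and side of the threshold, 38 brought a gene past it and 6 lost a call. In 2, both for Lsm8, the direction reversed. The 6 Met-high tumors and the unknown depth limit what can be detected, and differences of genes listed at 0 in many tumors rest on few values. With title number as a replicate block, chosen after seeing the data (correlation 0.436, and 0.544 among the Met-low tumors), 7 genes passed between the groups and 10 among the Met-low tumors. Whether tumors that share a number came from 1 mouse is not in the labels.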

Other observations

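Genes near the end of chromosome 13 were looked at after the fit, because Mrps30, Smn1 and Btf3 all lie there. The 108 tested genes from 90 Mb on include these genes, so the counts partly restate the choice and are no independent support. The median difference of the 108 was 0.53, against 0.09 over all genes tested. At an unadjusted p under 0.05 by limma, 35 of them were higher and 0 lower, against 5.37% and 2.28% of all genes. The median of their levels over the Met-low median ran from 0.28 to 0.90 among the Met-high tumors and from −0.56 to 0.49 among the Met-low tumors, so the groups overlapped. None of these genes passed the adjusted threshold in the reported comparison.

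Prl2c2, Prl2c3 and Prl2c5, proliferin genes elsewhere on chromosome 13, reached high levels in several Met-high tumors. Prl2c3 was listed at 10.25 in X154T, 7.53 in X437T, 5.86 in X520T, 5.08 in X153T, 1.14 in X149T1 and 0.37 in X2265T, and at 0 in 11 of the 17 Met-low tumors, with 7.98 in X1310T2 the highest. Its difference was 4.004 (SE 1.15), with an adjusted p of 0.454 by limma. The 3 genes are near-identical copies, so reads may have been divided between them and their values are uncertain as single genes.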
